A study of Homo sapiens with 8 samples.

Results

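The hypoxia-inducible factors (HIFs) and a panel of their classic targets were examined in Hs578T breast cancer cells kept at high or low glucose. The panel held 10 genes chosen by symbol: the factor subunits HIF1A and EPAS1, the prolyl hydroxylases EGLN1 and EGLN3, and the targets VEGFA, ADM, NDRG1, BNIP3, CA9 and ANKRD37. Each symbol matched 1 of the 21077 rows of the expression table, and the rule names genes without using a measured value, although earlier results of these data were known when the panel was chosen. Hs578T is a breast cancer line that the labels describe as estrogen receptor negative. RNA-Seq was performed on 4 replicates treated with 25 mM glucose (high glucose, used to model hyperglycemia) and 4 replicates with 5 mM glucose (low glucose, the control), all after 48 hours. According to the methods of the study, its cells were conditioned in low glucose and then exposed to high glucose in serum-free medium, and mannitol was added to low glucose in some experiments to match osmolarity. The study reports that mannitol made no difference to proliferation or migration. The labels do not say whether mannitol was used here, and they give no oxygen level. Nothing says that the replicates were separate cultures, so p values rest on the spread between libraries only, and that spread may be technical. In bulk RNA, fewer cells of a type and less RNA per cell cannot be told apart.

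HIFs are transcription factors made of an oxygen-regulated alpha subunit and a stable beta subunit of the ARNT family. When oxygen is present, EGLN prolyl hydroxylases mark the alpha subunit for binding by the VHL ubiquitin ligase and for degradation, and when oxygen falls the subunit accumulates and binds hypoxia response elements in genes for blood vessel growth, glycolysis, acid-base balance and mitophagy. Control of the alpha subunits is therefore mainly at the level of protein, which RNA-Seq does not measure. EGLN3 and several other targets of the factors feed back on the pathway, and carbonic anhydrase 9, encoded by CA9, is used as a marker of hypoxia in tumors.

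The estimated depth was 10244897 to 11956682 reads per library, at which 1 read is 0.0867 to 0.118 CPM (counts scaled to library size). No pair of libraries in a group agreed within sampling noise (chi-square per gene 1.60 to 5.72, against 1 for sampling alone). All 6 mesenchymal markers examined were present in every library, and each was lower in all high-glucose libraries, with a summed signal of 32084 to 33299 CPM in high glucose and 53860 to 58001 CPM in low glucose. Of 6 estrogen receptor and epithelial markers, EPCAM was 0 throughout, ESR1 reached at most 0.270 CPM, and PGR and CDH1 stayed below 1 CPM, but GATA3 was at 18.9 to 24.2 CPM over all libraries and ESRP1 was at 0.301 to 0.607 CPM in high glucose and 1.95 to 2.44 CPM in low glucose. The part of these markers in the results was not tested. The summed signal of the 3 markers of leukocytes and endothelium found in the table was 5.61 to 7.30 CPM in high glucose and 1.63 to 2.66 CPM in low glucose, nearly all from PECAM1 and PTPRC, with CDH5 at 0, and its part was likewise not tested. Values are CPM as deposited, given as mean ± SD with n = 4 per group. Fold changes are differences of log2(CPM + 1), high minus low glucose, with their SE, a scale that understates the change of low genes, and adjusted p values are from limma over all genes tested, with calls at a false discovery rate (FDR) of 0.05.

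Of the 10 genes, 9 passed the filter on low values, and of these 4 were called higher and 5 lower in high glucose. The background was high: of 15570 genes tested, 72.9% were called, 35.7% higher and 37.2% lower, so a call in itself sets no gene apart. The high-glucose and low-glucose libraries did not overlap for 8 of the members (3 higher and 5 lower in high glucose), beside 66.7% of genes tested (32.2% higher and 34.5% lower). The median log2 fold change was -0.30 over the 9 genes and -0.000312 over all genes tested. The members ran from EGLN1, with a higher log2 fold change than 92.1% of genes, to NDRG1, which lay at percentile 0.8. CA9, among the 4 called higher, passed the filter only through its high-glucose libraries, so its call is partly fixed by the filter. EGLN3 did not pass it. The scaling of the libraries moved these values: the deposited columns sum to 1017015 to 1036274 in high glucose and 1205567 to 1229021 in low glucose, and if all libraries are given equal totals, the median log2 fold change of the genes tested shifts by 0.19 and the share of calls that were higher was 62.8%, against 48.9% with the deposited scaling.

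**Figure D1:**
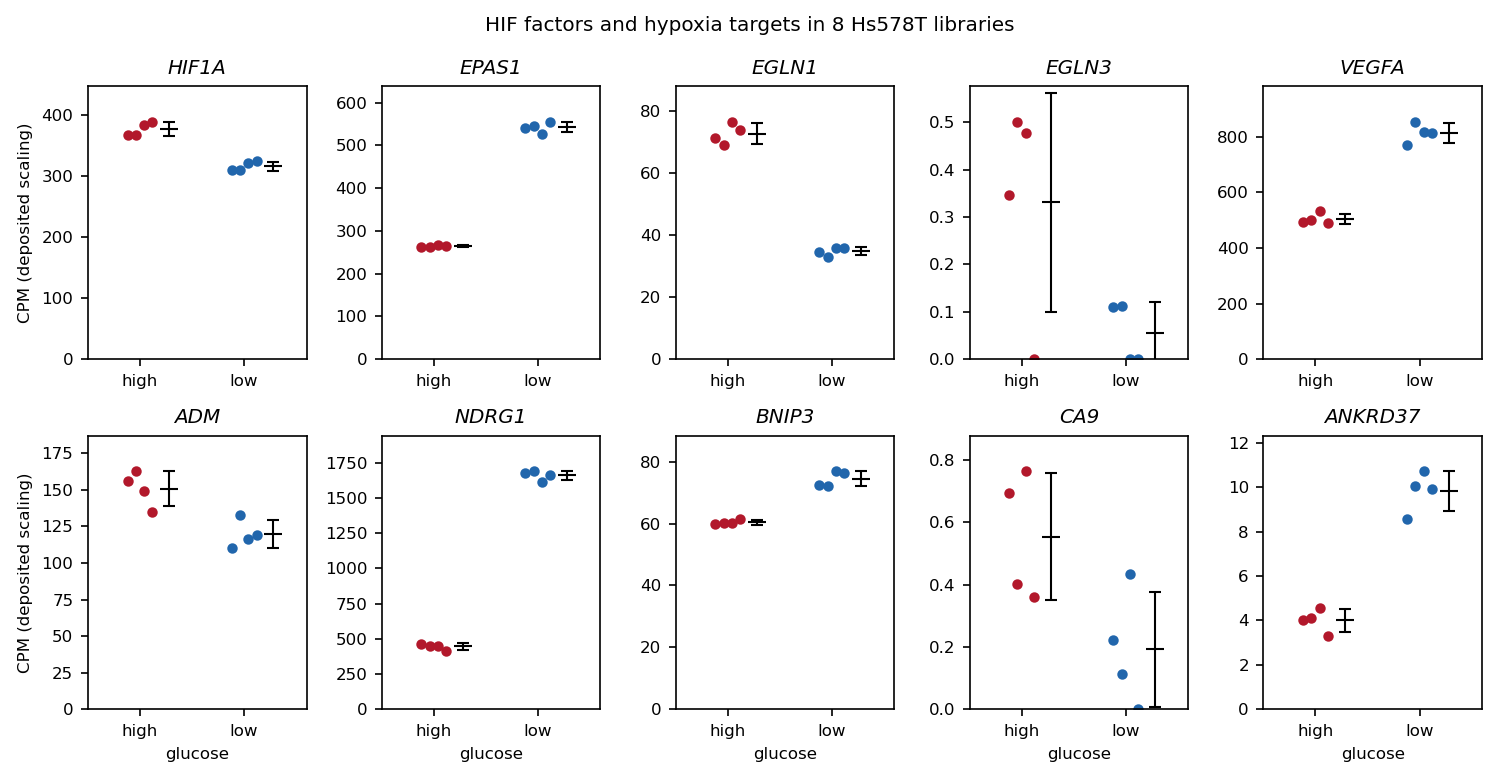
CPM of the 10 genes in each of 8 libraries (vertical axes, linear from 0), with high glucose in red on the left and low glucose in blue on the right of each panel, and with black marks for the mean ± SD of each group. NDRG1 sat between 412 and 466 CPM in high glucose, below all low-glucose libraries, and the groups overlapped for CA9 and EGLN3.

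The transcripts of the 2 alpha subunits moved in opposite directions. HIF1A encodes the broadly expressed subunit of HIF-1, and the gene lies on chromosome 14 from 61695513 to 61748258 (RefSeq, GRCh38.p14). It had 368, 368, 384 and 389.7 CPM in the high-glucose libraries, against 311, 311, 321 and 325 CPM in the low-glucose libraries. All high-glucose libraries were above all low-glucose libraries, and HIF1A rose (log2 fold change 0.25 ± 0.0345, adjusted p = 8.07e-06). With the deposited scaling 72.65% of genes tested had a larger absolute fold change, but the size depended on the scaling, at 0.50 with equal totals and 0.40 with quantile normalization. EPAS1 encodes the alpha subunit of HIF-2, best known from endothelium and from renal cancer, and lies on chromosome 2 from 46297407 to 46386697. It had 263, 263, 267 and 266 CPM in high glucose, against 542, 547, 527 and 556 CPM in low glucose, without overlap. EPAS1 thus fell to about the same level in every high-glucose library (log2 fold change -1.03 ± 0.0316, adjusted p = 2.67e-13).

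The balance between the transcripts of both subunits turned round. The log2 ratio of HIF1A to EPAS1 within a library, which barely depends on how libraries are scaled, was 0.48, 0.48, 0.52 and 0.55 in high glucose, against -0.80, -0.81, -0.71 and -0.77 in low glucose. The difference of 1.28 had the smallest p that 4 against 4 libraries can give (exact permutation test, two-sided, 70 arrangements, p = 0.0286, and 0.0286 after adjustment over 2 ratios). This p was fixed by the values above, since HIF1A was higher and EPAS1 lower in every high-glucose library, so it adds no evidence. The difference was 1.23 to 1.31 under all alternatives run. Levels of different genes can only be compared per length. Per kilobase of the GENCODE canonical transcript, HIF1A was at 95.6 ± 2.79 and EPAS1 at 51.3 ± 0.364 CPM in high glucose, while in low glucose HIF1A was at 80.3 ± 1.86 and EPAS1 at 105 ± 2.32 CPM. HIF1A was therefore the more abundant alpha transcript in high glucose and EPAS1 in low glucose, and the same order was found with the length of all annotated exons, at 73.3 and 36.3 CPM per kilobase in high glucose and 61.5 and 74.4 CPM per kilobase in low glucose. Exons of HIF1A overlap HIF1A-AS1 by 133 bases and HIF1A-AS3 by 299 bases on the opposite strand, neither of which was matched by symbol in the table. A row for HIF1A-AS2 was present, at 0 CPM in both groups. HIF1A also overlaps AL137129.1 by 148 bases on the same strand, which had at most 1.14 CPM in high glucose and 1.55 CPM in low glucose.

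The prolyl hydroxylase EGLN1, the main oxygen sensor of the pathway, was higher in high glucose. EGLN1, on chromosome 1 from 231363756 to 231422287, had 71.4, 68.9, 76.6 and 73.9 CPM in high glucose, against 34.5, 33.1, 35.9 and 35.7 CPM in low glucose. The groups were far apart relative to their spread, with means of 72.7 ± 3.31 CPM in high glucose and 34.8 ± 1.30 CPM in low glucose (log2 fold change 1.04 ± 0.0533, adjusted p = 8.27e-11). In the GENCODE annotation, 3004 of the 5381 exonic bases of EGLN1 are shared with a gene on the same strand that was not matched in the table, so part of its reads may be shared. EGLN3, the hydroxylase that is strongly induced by hypoxia in many cells, lies on chromosome 14 from 33924227 to 33951074 and was barely detected. It had 0.347, 0.501, 0.477 and 0 CPM in high glucose, against 0.111, 0.112, 0 and 0 CPM in low glucose. These values correspond to 14 reads over the 4 high-glucose libraries (95% exact Poisson interval 7.65 to 23.5) and 2 reads over the 4 low-glucose libraries (0.242 to 7.22), intervals that cover counting error only, and the gene was not tested. The log2 ratio of EGLN1 to EGLN3 was 5.81 ± 0.294 in high glucose and 5.08 ± 0.137 in low glucose on the scale with 1 CPM added (difference 0.72, exact permutation p = 0.0286, adjusted p = 0.0286), but with 0.1 CPM added the difference was -0.22 (p = 0.771, with 0.0286 to 0.771 over all alternatives), so no statement on this ratio can be made at this depth.

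Among the targets, NDRG1 had the largest absolute log2 fold change of the tested genes of the panel. NDRG1, a stress-responsive gene also known as a metastasis suppressor, lies on chromosome 8 from 133237175 to 133297252. It had 466, 449.8, 451 and 412 CPM in high glucose, against 1675, 1689, 1615 and 1663 CPM in low glucose. No library of high glucose came near the low-glucose libraries, and NDRG1 fell (log2 fold change -1.90 ± 0.0387, adjusted p = 3.94e-15). Only 1.91% of all genes tested had a larger absolute change on this scale.

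VEGFA and ADM, the panel's secreted vascular factors, parted ways. VEGFA, the principal growth factor for endothelial cells, lies on chromosome 6 from 43770211 to 43786487. It had 493, 500.5, 532 and 489.6 CPM in high glucose, against 769, 853, 816 and 811 CPM in low glucose. The groups did not overlap, and VEGFA fell (log2 fold change -0.69 ± 0.0389, adjusted p = 2.72e-10), a change that was -0.44 with equal totals and -0.40 with quantile normalization. ADM encodes the vasodilator peptide adrenomedullin and lies on chromosome 11 from 10305073 to 10307397. It had 156, 163, 149.6 and 135 CPM in high glucose, against 110.0, 133, 116 and 119 CPM in low glucose. The lowest high-glucose library was just above the highest low-glucose library, and ADM rose (log2 fold change 0.33 ± 0.0622, adjusted p = 1.86e-04, and 0.57 with equal totals). With the deposited scaling, 64.7% of genes had a larger absolute change than ADM.

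**Figure D2:**
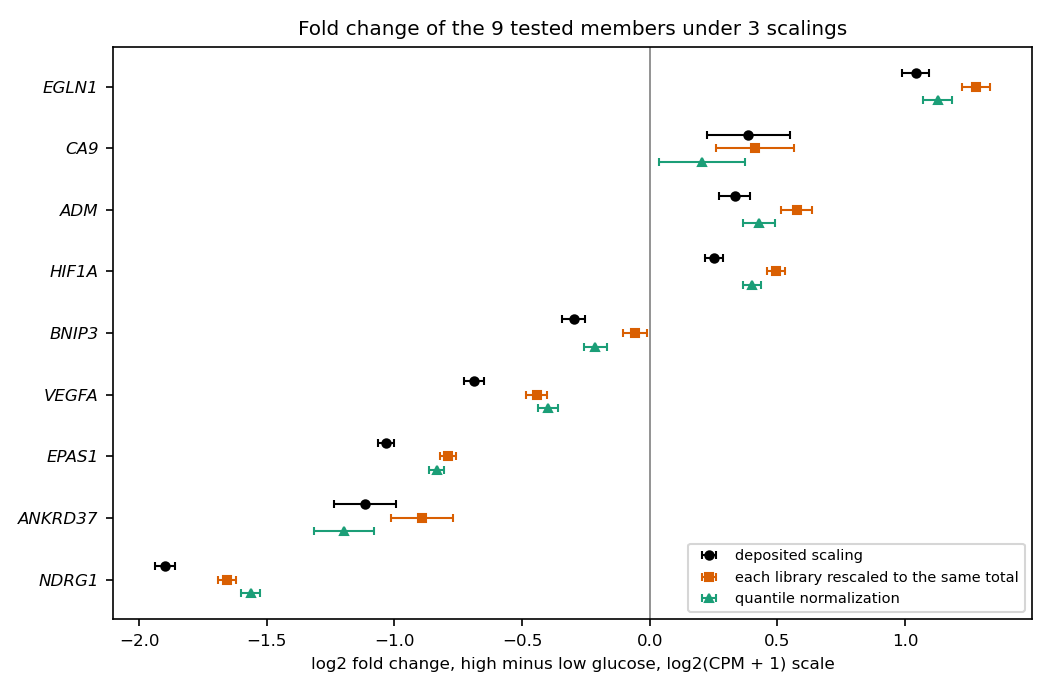
Difference in log2(CPM + 1), high minus low glucose (log2 fold change, horizontal axis), of the 9 tested genes with its SE, for the deposited scaling in black, equal library totals in orange and quantile normalization in green. BNIP3 was at -0.30 with the deposited scaling and at -0.057 with equal totals, and all 9 genes kept their side of 0 in the 3 scalings.

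BNIP3 and ANKRD37, both direct targets of HIF-1 in other cells, were lower in high glucose. BNIP3 encodes a mitochondrial protein of the BCL2 family that promotes mitophagy, on chromosome 10 from 131967684 to 131981923. It had 59.7, 60.0, 60.1 and 61.5 CPM in high glucose, against 72.5, 72.2, 76.8 and 76.4 CPM in low glucose. The libraries of high glucose were close to each other and all below those of low glucose (log2 fold change -0.30 ± 0.0448, adjusted p = 2.14e-05), but with equal library totals the change was -0.057 and was not called (adjusted p = 0.276, in a range of 1.94e-05 to 0.276 for the 17 alternatives). The call for BNIP3 therefore depends on the scaling. BNIP3 has processed pseudogenes, and the values of 2 of them in the table, BNIP3P11 and BNIP3P17, averaged at most 0.115 CPM in either group. ANKRD37, which encodes a small ankyrin repeat protein, lies on chromosome 4 from 185396841 to 185400723. It had 4.00, 4.12, 4.58 and 3.31 CPM in high glucose, against 8.58, 10.1, 10.7 and 9.90 CPM in low glucose. All high-glucose libraries were below all low-glucose libraries, and ANKRD37 fell (log2 fold change -1.11 ± 0.122, adjusted p = 6.88e-07, and -0.72 with a pseudocount of 5 CPM). Exons of ANKRD37 overlap by 909 bases those of UFSP2 on the opposite strand in the GENCODE annotation, and UFSP2 also fell, with 25.8 ± 1.60 CPM in high glucose and 51.0 ± 4.04 CPM in low glucose (log2 fold change -0.96). Whether reads were counted by strand is not stated in the sources used here, and without strand the reads of both genes cannot be told apart.

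CA9, the classic marker of hypoxia, was near the limit of detection in both groups. CA9 lies on chromosome 9 from 35673928 to 35681159 and encodes a membrane-bound enzyme that hydrates carbon dioxide at the cell surface. It had 0.693, 0.401, 0.764 and 0.360 CPM in high glucose, against 0.221, 0.112, 0.433 and 0 CPM in low glucose. The groups overlapped. In reads, the sums were 24 in high glucose (95% exact Poisson interval 15.4 to 35.7) and 7 in low glucose (2.81 to 14.4). CA9 reached the filter level of 0.5 CPM in 2 high-glucose libraries and in 0 low-glucose libraries. It was tested only because of its high-glucose values, so its p values are partly fixed by the filter and are no evidence of a rise. With that limit, the gene just passed as higher (log2 fold change 0.39 ± 0.164, adjusted p = 0.0454). The call was lost without low-glucose replicate 1, 2 or 4 (adjusted p = 0.0659, 0.0946 and 0.130), with quantile normalization (adjusted p = 0.290) and with a pseudocount of 5 CPM (adjusted p = 0.0690), over a range of 0.0202 to 0.290 in all alternatives that gave a value. CA9 shares 571 exonic bases with ARHGEF39 on the opposite strand, which was at 2.09 ± 0.111 CPM in high glucose and 0.867 ± 0.261 CPM in low glucose, with the same limit on telling reads apart.

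Per kilobase of the canonical transcript, the 10 genes in high glucose ranked NDRG1, VEGFA, ADM, HIF1A, EPAS1, BNIP3, EGLN1, ANKRD37, CA9 and EGLN3, at 147 ± 7.62 CPM for NDRG1 and 139.6 ± 5.34 CPM for VEGFA down to 0.359 ± 0.132 CPM for CA9 and 0.122 ± 0.0854 CPM for EGLN3. Within this order, NDRG1 and VEGFA lay within their combined spread, as did ADM at 101 ± 8.01 CPM and HIF1A at 95.6 ± 2.79 CPM. In low glucose, NDRG1 was far ahead at 549 ± 10.7 CPM, followed by VEGFA at 225 ± 9.55 CPM and EPAS1 at 105 ± 2.32 CPM, while ADM at 80.2 ± 6.45 CPM and HIF1A at 80.3 ± 1.86 CPM lay within their spread by this length. GENCODE also places exons of genes without a symbol over 3004 exonic bases of EGLN1 and 753 of NDRG1 on the same strand, and neither of these genes was matched in the table. Exons of AL136131.3, at 4.45 to 5.83 CPM in high glucose and 6.38 to 10.5 CPM in low glucose, lie over 188 of VEGFA on the opposite strand. Part of the reads of EGLN1, NDRG1 and VEGFA may therefore be shared. The order depended on the length used. With all annotated exons, NDRG1 and VEGFA were at 37.1 and 34.9 CPM per kilobase in high glucose, below HIF1A at 73.3. In low glucose by that length, VEGFA at 56.3 ± 2.39 CPM was below EPAS1 at 74.4 ± 1.64 CPM and HIF1A at 61.5 ± 1.42 CPM, and ADM at 51.4 ± 4.14 CPM was below HIF1A beyond their spread.

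Promoters are shown for genes of the panel that carry the core of the hypoxia response element near their start site, so that the letters stand beside the changes. The cores searched were ACGTG and GCGTG, on both strands, and an ACGTG match on 1 strand can overlap a match on the other where the letters read CACGTG. RefSeq promoters (GRCh38.p14, 250 bases before to 50 bases after the start) were matched for 8 of the 10 genes, namely all but VEGFA and NDRG1. These genes have 9 promoters in the table, since HIF1A has a second start, without a match. ACGTG was found in 4 of the 9 promoters, against 21.4% of all 35116 promoters, and either core in 7 of 9, against 48.4% of all promoters. The 4 with ACGTG follow, 5′ to 3′ on the strand of the gene and with matches in capitals: EGLN1 (chr1:231422238-231422537, minus strand), ANKRD37 (chr4:185396591-185396890, plus strand), BNIP3 (chr10:131981874-131982173, minus strand) and CA9 (chr9:35673678-35673977, plus strand).
EGLN1: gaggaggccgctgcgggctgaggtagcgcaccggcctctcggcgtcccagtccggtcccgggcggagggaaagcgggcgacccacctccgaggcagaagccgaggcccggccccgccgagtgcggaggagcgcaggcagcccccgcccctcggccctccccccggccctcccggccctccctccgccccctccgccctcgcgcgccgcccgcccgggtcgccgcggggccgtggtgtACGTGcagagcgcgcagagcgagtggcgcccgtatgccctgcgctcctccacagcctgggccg
ANKRD37: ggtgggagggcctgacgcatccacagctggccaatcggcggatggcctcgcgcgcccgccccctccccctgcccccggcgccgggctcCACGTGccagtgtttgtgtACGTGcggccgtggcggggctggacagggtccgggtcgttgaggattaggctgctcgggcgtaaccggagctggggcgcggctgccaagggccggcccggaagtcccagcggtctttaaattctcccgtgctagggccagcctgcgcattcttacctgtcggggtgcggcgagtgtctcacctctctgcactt
BNIP3: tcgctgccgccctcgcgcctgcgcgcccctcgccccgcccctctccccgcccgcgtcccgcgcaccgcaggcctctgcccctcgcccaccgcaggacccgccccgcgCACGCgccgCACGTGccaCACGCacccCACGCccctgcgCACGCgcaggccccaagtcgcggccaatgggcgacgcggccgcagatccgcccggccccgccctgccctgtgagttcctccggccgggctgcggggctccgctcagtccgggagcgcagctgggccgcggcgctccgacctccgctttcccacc
CA9: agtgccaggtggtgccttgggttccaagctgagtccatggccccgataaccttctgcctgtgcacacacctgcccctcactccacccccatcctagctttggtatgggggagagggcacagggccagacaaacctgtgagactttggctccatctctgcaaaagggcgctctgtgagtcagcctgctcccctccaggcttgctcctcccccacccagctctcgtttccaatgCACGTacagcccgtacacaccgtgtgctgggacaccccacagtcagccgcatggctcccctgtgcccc

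In EGLN1 the only match begins 13 bases before the start site, and in CA9 the only match begins 18 bases before it, on the opposite strand. ANKRD37 has 3 matches, 2 of which form a CACGTG, and BNIP3 has 6 matches with first bases at -143 to -104 from the start. HIF1A, EPAS1 and ADM each had 1 match, to GCGTG, and EGLN3 had none in this window. The genes with ACGTG did not move together: EGLN1 rose by 1.04, ANKRD37 fell by 1.11 and BNIP3 fell by 0.30 on the log2 scale, the fall of BNIP3 being lost with equal totals, and CA9 was near detection. Such matches are letters in a window, and binding of HIF was not measured.

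**Figure D3:**
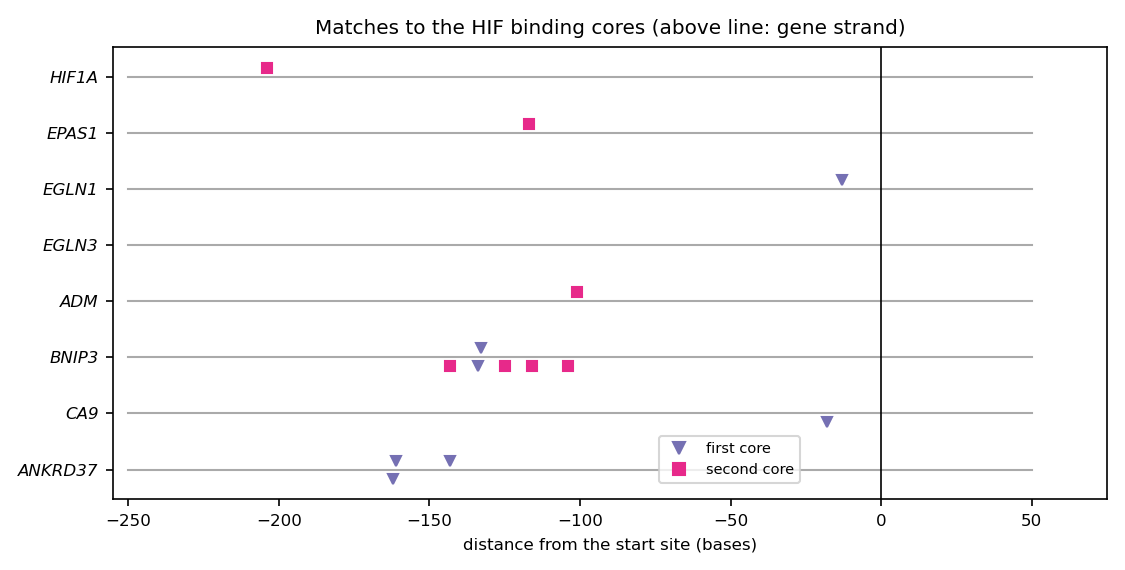
Matches to both cores of the hypoxia response element by distance from the start site (horizontal axis, bases) in the promoters of 8 genes, with triangles for the first core (beginning with A) and squares for the second (beginning with G), above the line on the gene strand and below it on the opposite strand. The matches of EGLN1 and CA9 lie within 18 bases of the start, and those of BNIP3 begin at -143 to -104 from it.

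The other genes of the pathway also moved both ways. Over 8 lists of HIF partners, regulators, targets and relatives of the panel, 95 genes were tested, of which 40 were called higher (42.1%), 42 lower (44.2%) and 13 were not called, with a median log2 fold change of -0.072. Over all genes tested the shares were 35.7% higher and 37.2% lower, so the 86.3% of list genes called stand beside 72.9% of all genes. Of the 95 genes, 3 passed the filter only through high glucose (KDR, CALCRL and ADM5) and 1, CITED4, only through low glucose, so their calls are partly fixed by the filter. Among HIF partners and coactivators, 4 of 9 were higher and 4 lower. The transcripts of the beta subunits changed in opposite directions: ARNT2, the paralog known from neurons, rose to 65.5 ± 2.21 CPM in high glucose, against 16.6 ± 0.975 CPM in low glucose (log2 fold change 1.92 ± 0.0620, adjusted p = 4.94e-13), and ARNT, the common partner of both alpha subunits, fell to 58.9 ± 1.24 CPM in high glucose, against 120.9 ± 1.60 CPM in low glucose (-1.02 ± 0.0406, adjusted p = 4.57e-12). The coactivator EP300 rose (0.77), and CITED2, which competes with HIF for that coactivator, fell (-0.48, and -0.24 with equal totals). Among 13 genes of HIF hydroxylation and turnover, 6 were higher and 5 lower. LIMD1, a scaffold that joins the hydroxylases and VHL (1.14), and RBX1, the RING subunit of the VHL ligase (0.61), rose, whereas RACK1, which promotes turnover of HIF1A without oxygen sensing (-1.24), and the ubiquitin ligase SIAH1, which targets hydroxylases (-0.88), fell. VHL itself was at 46.9 ± 2.18 CPM in high glucose and 41.5 ± 2.72 CPM in low glucose (0.17, adjusted p = 0.0169, and 0.41 with equal totals), and the asparaginyl hydroxylase HIF1AN was also higher (0.46, and 0.69 with equal totals), both named after their values were seen. EGLN2, the remaining prolyl hydroxylase and likewise named afterwards, was at 37.2 ± 3.79 CPM in high glucose and 37.7 ± 4.78 CPM in low glucose (adjusted p = 0.860), but with equal library totals it was called higher (0.22, adjusted p = 0.0330).

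Of 16 tested glycolytic targets of HIF, 4 were higher and 10 lower, beside 35.7% higher and 37.2% lower of all genes, with a median of -0.68. With equal totals or quantile normalization, 6 were higher and 10 lower. PFKFB3, an activator of glycolytic flux, rose to 91.2 ± 6.22 CPM in high glucose, against 44.9 ± 2.99 CPM in low glucose, and the kinase PGK1 rose by 0.77 on the log2 scale. The glucose transporter SLC2A1 fell (-1.22), and the phosphofructokinase PFKP fell to 82.4 ± 6.94 CPM in high glucose, against 199.8 ± 11.5 CPM in low glucose. The list of targets outside glycolysis also holds PFKFB4 (0.96) and SLC16A3 (0.77), which could be counted as glycolytic. Both were called higher and are named after their values were seen. Among the 40 tested genes of that list, 17 were higher and 19 lower, with a median of -0.075. With equal totals, 22 were higher and 15 lower. Over all genes, 7327 were then called higher and 4349 lower, against 5553 and 5797 with the deposited scaling. The more frequent direction thus depended on the scaling for this list as for all genes. EDN1, the vasoconstrictor endothelin precursor, rose to 31.4 ± 2.06 CPM in high glucose, against 3.66 ± 0.969 CPM in low glucose (log2 fold change 2.82 ± 0.134, adjusted p = 3.73e-11), and PPFIA4, a liprin scaffold, rose by 1.60. P4HA2, a collagen prolyl hydroxylase subunit, fell to 125 ± 7.02 CPM in high glucose, against 399.5 ± 2.36 CPM in low glucose (-1.67 ± 0.0405, adjusted p = 2.53e-14), and the repressor BHLHE40 fell (-1.38). Apart from CITED4, every called gene named here from the pathway lists kept its call with equal totals, upper quartile scaling and quantile normalization.

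**Figure D4:**
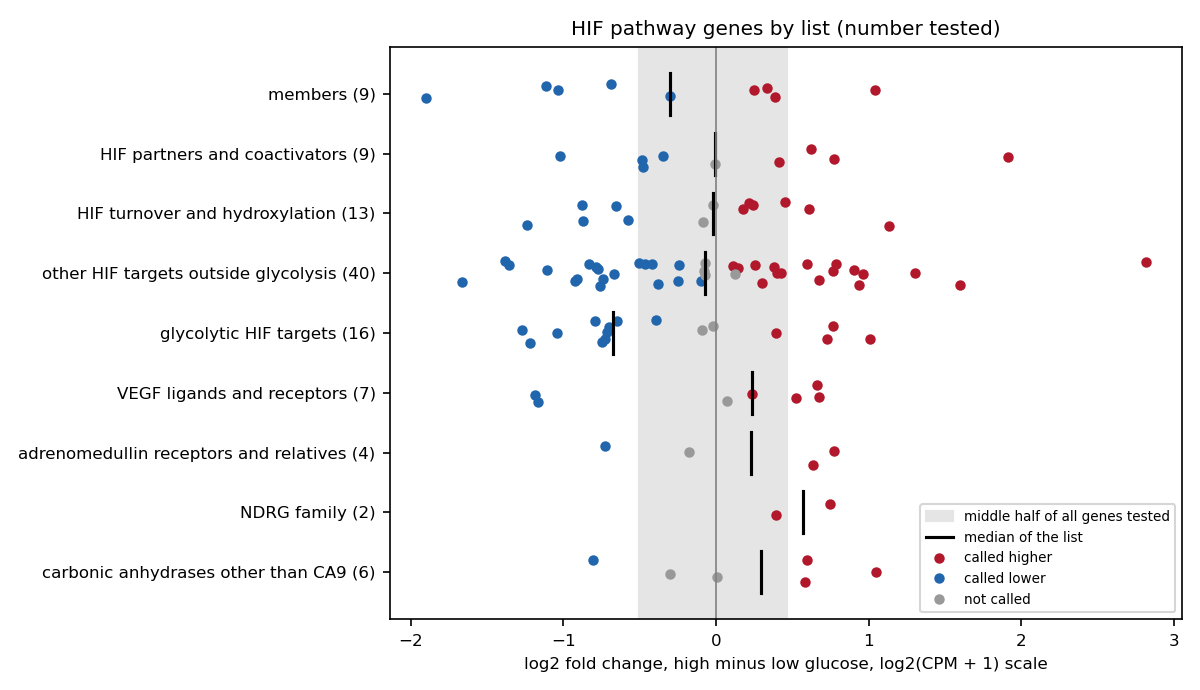
Difference in log2(CPM + 1), high minus low glucose (log2 fold change, horizontal axis), of each tested gene of the panel (first row) and of 8 further lists, with the number tested in parentheses, genes called higher in red, called lower in blue and not called in grey, the median of a list as a black mark and the range between the quartiles of all genes tested shaded. The medians run from -0.68 for glycolytic targets to 0.57 for NDRG3 and NDRG4.

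The relatives of the panel genes moved both ways, and so did the genes tested at large. VEGFB (-1.17) and the co-receptor NRP2 (-1.19) fell like VEGFA, whereas the receptor FLT1 rose from a low level (0.67). The receptor KDR passed the filter only through high glucose, at 0.793 ± 0.119 CPM in high glucose and 0.137 ± 0.164 CPM in low glucose. Of 7 VEGF ligands and receptors tested, 4 were higher, KDR included, and 2 lower, beside 35.7% higher and 37.2% lower of all genes. With equal totals, upper quartile scaling or quantile normalization, 5 were higher, since NRP1 was then also called. Over all genes, 7327, 6278 and 5553 were called higher in these scalings, against 5553 with the deposited scaling. The adrenomedullin receptor CALCRL was at 1.29 ± 0.217 CPM in high glucose and 0.337 ± 0.0940 CPM in low glucose and ADM5 was at 0.594 ± 0.0447 CPM in high glucose and 0.0271 ± 0.0542 CPM in low glucose, both past the filter through high glucose only, and the related peptide gene ADM2 fell (-0.73). NDRG3 rose (0.39, and 0.63 with equal totals), in contrast to NDRG1. NDRG4 rose from a low level (0.75), at 1.47 ± 0.170 CPM in high glucose and 0.479 ± 0.216 CPM in low glucose, where only 1 library reached 0.5 CPM. Unlike the barely detected CA9, the carbonic anhydrase CA12, the other membrane-bound form common in breast cancer, rose to 79.4 ± 1.60 CPM in high glucose, against 52.2 ± 1.99 CPM in low glucose (0.59 ± 0.0465, adjusted p = 1.28e-08), CA13 rose by 1.05 and the mitochondrial CA5B fell (-0.81).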

How the data were processed

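RNA-Seq of 4 high-glucose and 4 low-glucose libraries of Hs578T was analysed, with groups taken from the treatment labels. The authors deposited 1 table of normalized signal per gene and library. Its scale was taken as CPM with TMM factors, since the submitters' processing notes name edgeR and hg38, the methods of the study describe such CPM for its other samples, and the columns have unequal sums (1017015 to 1229021). The methods name Tophat and an older genome build for the tumors of the study. The aligner and counter behind these libraries are not stated. TMM centers fold changes near 0 on the premise that most genes are stable. The most frequent positive value of a column was taken as 1 read, but some values are fractions of a read, so no count model was used.

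The filter kept genes that reached 0.5 CPM in 2 or more libraries. Values were tested on the log2(CPM + 1) scale with limma (version 3.58.1, run in R 4.3.3), using a trended variance prior, no covariates and Benjamini-Hochberg adjustment over all genes tested. Two-sided exact permutation tests were used for ratios. The fit was also run on simulated data with few changed genes, equal depth and a fixed spread. That setting differs from these data, where most genes were called, so it cannot show how the fit behaves here. Lengths and exon overlaps are from the GENCODE annotation by Ensembl ID, and positions and promoters from RefSeq by symbol. Promoter strand was checked against transcripts. The members and lists were chosen with earlier results of these data known. Named genes were the panel, and from each list up to 2 called genes with the highest and 2 with the lowest fold change, with exceptions stated. Alternatives covered the pseudocount, the filter, the scaling, the variance prior, a replicate block and leaving out each library.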

Additional observations from a re-analysis of the deposited data

How the results depend on the processing

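Of the 9 tested genes of the panel, HIF1A, EPAS1, EGLN1, VEGFA, ADM, NDRG1 and ANKRD37 kept direction and call under all 17 alternatives. BNIP3 was -0.057 with equal totals and not called, and it kept its call under the other 16. CA9 lost its call at 0.10 with a pseudocount of 5 CPM and at 0.20 with quantile normalization, and ranged from 0.31 to 0.48 with 1 library left out. It was not tested with a filter of 1 CPM in at least 4 libraries or without high-glucose replicate 1 or 3, since it then failed the filter. The log2 ratio of EGLN1 to EGLN3 reversed to -0.22 with a pseudocount of 0.1 CPM, at which reads of EGLN3 carry more weight. With quantile normalization, 2 carbonic anhydrases other than CA9 were called lower, against 1 with the deposited scaling. Counts of other lists moved as well: with equal totals, targets outside glycolysis had 22 higher and 15 lower, and HIF partners and coactivators 5 higher and 3 lower. With equal totals, 7327 genes were called higher and 4349 lower, against 5553 and 5797 with the deposited scaling. Replicate numbers did not pair the libraries throughout: deviations of same-numbered libraries correlated at -0.00536, 0.295, 0.0463 and 0.211. High-glucose libraries 1 and 3 and low-glucose libraries 1 and 3 correlated better with another number, whereas libraries 2 and 4 correlated best with their own number. With the replicate number as a block, 5602 genes were called higher and 5892 lower, and the panel again had 4 called higher, CA9 included, and 5 lower. Depth limits statements on CA9 and EGLN3.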

Other observations

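NDRG1 had the largest absolute log2 fold change among the tested genes of the panel, on the scale with 1 CPM added. Among 10919 genes with a mean of at least 5 CPM, the 3 whose log2(CPM + 1) values correlated best with it over the 8 libraries were LBH (Pearson r = 0.9998), VIM (r = 0.9997) and PABPC4 (r = 0.9997). These are descriptions: the libraries fall into 2 glucose groups, every gene with a large fall shares that split, and 1055 genes had an r above 0.99.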
